A study of Mus musculus with 2 samples.

Results

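Integrins are receptors of the cell surface, each built from 1 alpha and 1 beta subunit, that bind extracellular matrix or surface proteins of other cells and connect them through talin and kindlin to the actin cytoskeleton. The pair of subunits sets the ligand: chains such as alpha4, alpha5 and alpha9 join beta1, while alphav joins beta1, beta3 or beta5. In the embryonic heart, endocardial cells and the cushion mesenchyme that arises from them sit in a matrix rich in fibronectin, laminins, collagens, tenascin and periostin, all of them bound by integrins. Described here are 9 subunits known from endothelium or cushion mesenchyme, 6 alpha (Itga1, Itga4, Itga5, Itga6, Itga9, Itgav) and 3 beta (Itgb1, Itgb3, Itgb5). They were chosen by gene symbol, and all probe sets annotated to exactly 1 of them were read, which gave 33 probe sets of the 34945 that name 1 gene, and 9 genes of 18193.

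The study sorted cells of the Tie2Cre lineage from mouse hearts at embryonic day 12.5 and hybridised their total RNA to 1-colour Affymetrix arrays. The mutant group had the genotype Tie2Cre;Tbx20 loxP/-, with 1 floxed and 1 null allele of Tbx20, which encodes a T-box factor needed for heart development, and the control group was Tie2Cre;Tbx20 +/loxP, with 1 wild-type and 1 floxed allele. Both carried Tie2Cre, which is driven by regulatory sequence of the endothelial receptor gene Tek (Tie2) and marks endothelium, endocardium, their mesenchymal descendants and blood cells. Cells with the blood surface markers CD41, CD45 or Ter119 were kept out by the sort. The null allele belongs to the whole embryo, so other cells of a mutant heart carry it too. There was 1 array per genotype, and whether embryos were pooled is not given in the sources used here. Without replicates there is no test between the groups, and every difference below is one between 2 arrays.

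Signals are MAS5 intensities in arbitrary units. A probe set counted as measured where it lay above the median of each array, a floor of 82.4 in the mutant and 91.3 in the control, and 10665 genes were measured by their brightest probe set. Over these genes, the log2 ratio of mutant over control had a median of -0.01 and an SD of 0.38. Tbx20 itself was bright on both arrays, with 6416, 5262 and 4245 in the mutant, against 7638, 6128 and 7050 in the control, so its transcript was still read in the mutant, and which exons the floxed allele loses is not given in the sources used here. All 10 endothelial markers examined were measured, for instance Cdh5 at 10975 in the mutant and 10886 in the control, and their median log2 ratio was 0.08. The 6 endocardial markers had a median of -0.085, with 3 lower in the mutant and 3 higher. Tbx20, the gene altered in the mutant, is itself 1 of these 6 and, at -0.25, 1 of the 3 lower. Cushion mesenchyme markers had a median of -0.63, with 9 of 10 lower, where 51% of all measured genes were lower. Epicardial markers had one of 0.62, with 7 of 7 measured members higher, where 49% of all measured genes were higher. Myocardial markers had a median of 0.05, with 5 of 8 higher, and a summed signal of 18909 in the mutant and 15301 in the control. Smooth muscle and pericyte markers had a median of -0.16, with 5 of 7 measured members lower. The part of these cell types in the integrin values was not tested. In RNA of many cells, fewer cells of a type and less RNA per cell cannot be told apart. The signal ratio of the 3' over the 5' end of Gapdh, a sign of RNA quality, was 1.64 in the mutant and 2.27 in the control, while that of Actb was 0.998 in the mutant and 0.989 in the control. The 18 spike control probe sets, which read RNA added during preparation, averaged -0.45 on the log2 scale, 18 of 18 lower in the mutant, and how this bears on the ratios below was not tested.

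The 9 integrin subunits did not move as a group. Read by the brightest probe set, 4 genes were higher in the mutant and 5 lower, where 49% of all measured genes were higher. Their median log2 ratio was -0.07, against -0.01 for all measured genes. A single subunit, Itgb3, was at least 2-fold lower, where 1.46% of all measured genes were, and 0 were at least 2-fold higher, where 0.647% of all genes were. Every subunit had at least 1 measured probe set, and 25 of the 33 probe sets were measured, the other 8 lying under the floor on both arrays. Of those 25, 14 were higher in the mutant and 11 lower, where 49.9% of all measured probe sets of 1 gene were higher, and only 2 differed by more than 0.5 on the log2 scale, 1 of Itga9 and the 1 of Itgb3. The sign of the median turned with the treatment of probe sets: it was 0.064 without Itgb3, 0.0099 when each gene took the median of its probe sets and 0.085 with probe sets whose names carry no suffix letter.

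**Figure D1:**
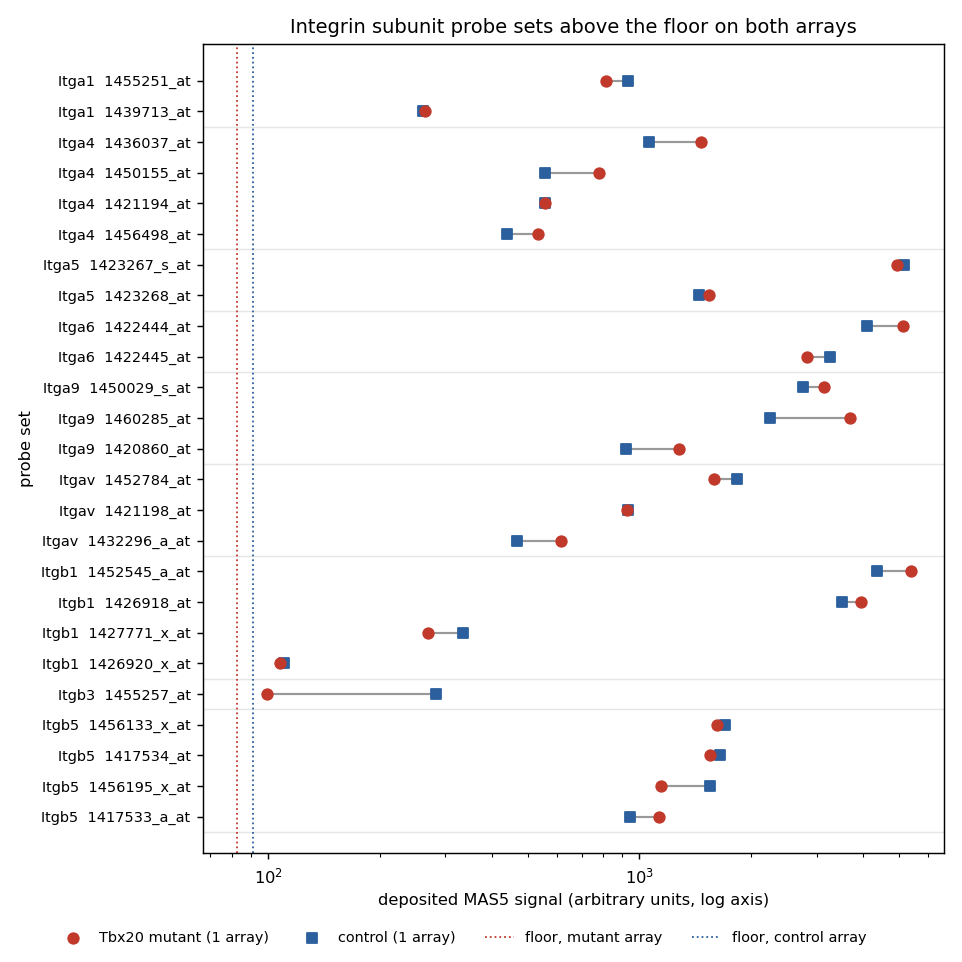
MAS5 signal (log axis, arbitrary units) of each of the 25 measured integrin probe sets, in the mutant array (red circles) and the control array (blue squares), with the floor of each array as a dotted line. Most pairs lie close together, the Itga4 and Itga9 pairs have the mutant at or to the right of the control, and Itgb3 reads 99.6 in the mutant, close to the floor.

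Probe sets of 1 gene share the same RNA, so their spread measures probe error and not the spread between embryos. Pooled over genes, the SD of log2 ratios between probe sets of 1 gene was 0.31 for a mean signal over 1000, 0.39 from 200 to 1000 and 0.49 under 200. Of the 8 integrin genes with several measured probe sets, 6 had probe sets of both signs, where 54.9% of all genes with several did. The other 2 were Itga4 and Itga9. After quantile normalization or loess, 7 genes had both signs, Itga4 among them.

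Itga9 and Itga4 encode the 2 closely related alpha chains without an inserted collagen-binding domain that join beta1 and bind the cell adhesion protein Vcam1. Alpha9 also binds tenascin-C, and alpha4 the alternatively spliced region of fibronectin. Depending on the probe set, Itga9 was higher in the mutant by up to 1.65-fold and Itga4 by up to 1.40-fold, while 1 Itga4 set read alike on both arrays. The 3 Itga9 probe sets read 3144, 3696 and 1276 in the mutant, against 2748, 2246 and 920.4 in the control. All 3 were higher in the mutant, by log2 ratios of 0.19, 0.72 and 0.47, a mean of 0.46 (SD 0.26 over 3 probe sets). Of all genes with 3 measured probe sets, 17.9% had all of them higher. The second of these, probe set 1460285_at, had the highest ratio of any measured integrin probe set, at percentile 97.1 of all measured probe sets of 1 gene.

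For Itga4, the 4 measured probe sets read 1466, 779, 557 and 535 in the mutant, against 1061, 557, 557 and 439 in the control. Their log2 ratios were 0.47, 0.48, 0.00 and 0.28, a mean of 0.31 (SD 0.22 over 4 probe sets), so 3 were higher in the mutant and 1 read alike on both arrays. Of all genes with 4 measured probe sets, 10.2% had all of them above 0. The Itga4 set that read alike moved to -0.01 to -0.02 under other scalings and with a pseudocount, so a count of 4 higher holds only with the deposited scale. By the brightest probe set, Itga4 had the highest ratio of the 9 subunits, at percentile 92.1 of all measured genes and 1.49 times the pooled SD between probe sets at that brightness. Itga9 was higher than Itga4 when genes took the median of their probe sets, at 0.47 for Itga9 and 0.37 for Itga4, and with unsuffixed probe sets. The other Itga4 probe set lay under the floor on both arrays and gives no ratio. In mice, alpha4 is also needed for the epicardium to attach to the heart. Markers of epicardium had a summed signal over all 8 of 8547 in the mutant and 4863 in the control. This sum takes in Upk1b, whose control reading of 89.9 lay under the floor. The part of the epicardial markers in the Itga4 result was not tested.

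**Figure D2:**
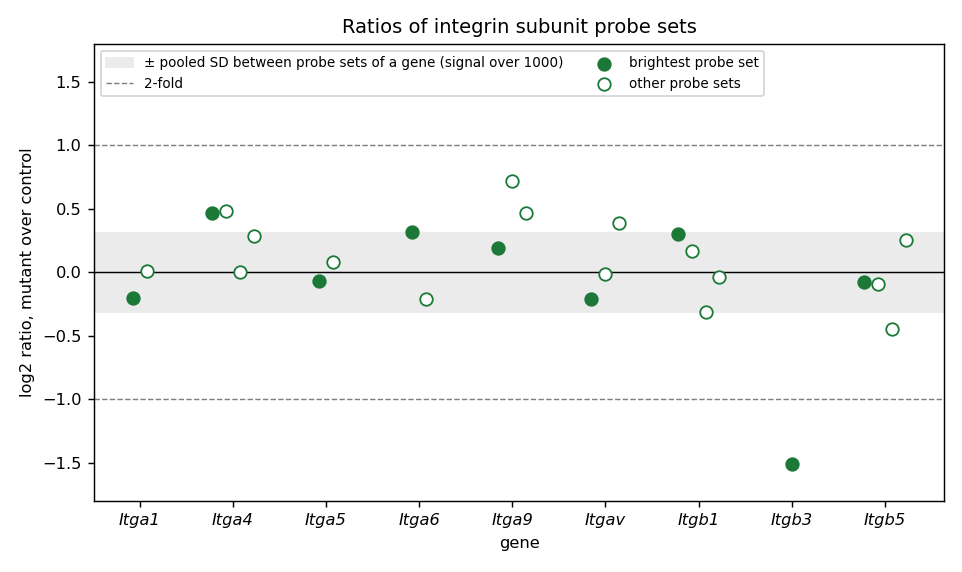
Log2 ratio of mutant over control (vertical axis) for each measured probe set of the 9 genes (horizontal axis), with the brightest probe set of a gene filled and the others open. The grey band is the pooled SD of 0.31 between probe sets of 1 gene at a signal over 1000 and the dashed lines are 2-fold; Itga4 and Itga9 lie at or above 0 throughout, 6 genes straddle 0, and Itgb3 lies at -1.51.

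Promoter windows from RefSeq (build GRCm38.p6) were matched by symbol for 7 of the 9 subunits, all but Itga6 and Itgb3. The windows of Itga9 and Itgav start at transcripts inside the gene and not at its first base. The 250 bases before the start are shown for Itga4, the subunit with the highest ratio by the brightest probe set, for Itga5, another fibronectin-binding alpha chain, with level signals, and for Itgb1, the beta chain both pair with. Each runs 5′ to 3′ on the strand of the gene. Capitals mark matches on either strand to the T-box core GGTGTGA, the GC box GGGCGG or the ETS core CGGAAG; the longer T-box form AGGTGTGA was searched too. These windows are at chr2:79255176-79255425 on the plus strand for Itga4, chr15:103366792-103367041 on the minus strand for Itga5 and chr8:128685404-128685653 on the plus strand for Itgb1.
Itga4: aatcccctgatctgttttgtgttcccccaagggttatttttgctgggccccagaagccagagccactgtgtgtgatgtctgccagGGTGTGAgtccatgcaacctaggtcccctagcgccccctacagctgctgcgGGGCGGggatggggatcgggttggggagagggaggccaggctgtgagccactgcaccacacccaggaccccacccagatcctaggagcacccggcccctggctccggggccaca
Itga5: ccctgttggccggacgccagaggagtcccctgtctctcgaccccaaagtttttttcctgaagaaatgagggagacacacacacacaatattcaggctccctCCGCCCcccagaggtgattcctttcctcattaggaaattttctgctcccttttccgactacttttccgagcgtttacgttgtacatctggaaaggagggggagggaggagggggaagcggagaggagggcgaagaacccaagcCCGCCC
Itgb1: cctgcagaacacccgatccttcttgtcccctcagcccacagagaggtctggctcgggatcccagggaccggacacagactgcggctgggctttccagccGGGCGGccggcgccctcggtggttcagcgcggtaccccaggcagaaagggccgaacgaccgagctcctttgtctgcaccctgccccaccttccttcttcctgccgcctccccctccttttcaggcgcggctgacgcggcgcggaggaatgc
The T-box core was in the Itga4 window, 165 bases before the start, and in 0 of the other 6 windows, against 3.33% of all 32851 RefSeq windows of this length, and it overlapped no other motif searched. The longer form was in 0 of the 7 windows, against 1.12% of all. A GC box was in 4 of the 7 windows, those of Itga4, Itga5, Itgb1 and Itgb5, against 32.7% of all, and the ETS core in that of Itgav, against 13.6% of all. Such matches describe the letters of the window only, and the arrays measure no binding there. The motif letters were settled on after other short motifs had been looked at, and no link between a match and a ratio was tested.

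Itga5 and Itgav encode alpha chains that recognise the RGD tripeptide, alpha5 with beta1 as the main fibronectin receptor of embryonic vessels and alphav with several beta chains as receptors of vitronectin, fibronectin and latent TGF-beta. Neither differed between the arrays by more than the spread between its probe sets. Itga5 read 4935 and 1534.5 in the mutant, against 5164 and 1447 in the control, with log2 ratios of -0.07 and 0.09, the narrowest spread among the 8 genes with several measured probe sets (SD 0.11). Another 2 Itga5 probe sets were under the floor on both arrays. Itgav read 1586, 928 and 613 in the mutant, against 1834, 934 and 468 in the control. Its 3 log2 ratios of -0.21, -0.01 and 0.39 ran from lower to higher with a mean of 0.06 (SD 0.30), and 2 more probe sets were under the floor on both arrays.

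Itga6, the alpha chain of laminin-binding integrins, gave its 2 probe sets in opposite directions. The brighter read 5112 in the mutant and 4103 in the control, a log2 ratio of 0.32. The other read 2824 in the mutant and 3258 in the control, a ratio of -0.21, so that the mean was 0.06 (SD 0.37), the widest spread among the 8 genes. Itga1, the alpha chain of a collagen receptor with an inserted ligand-binding domain, read 811 and 265 in the mutant, against 933 and 262 in the control. Its log2 ratios of -0.20 and 0.01 stayed within the 0.39 pooled SD of its brightness class.

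Among the beta chains, Itgb1 is the partner shared by most of the alpha subunits above. Its 2 bright probe sets read 5375 and 3942 in the mutant, against 4367 and 3511 in the control, log2 ratios of 0.30 and 0.17. Both were higher in the mutant, by no more than the pooled SD of 0.31. The 2 dimmer measured sets, of the suffix class whose probes can also match other transcripts, read 270.4 and 108 in the mutant, against 336 and 111 in the control, at -0.31 and -0.04. The mean over the 4 was 0.03 (SD 0.27), and 2 further sets were under the floor.

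Itgb5, a partner of alphav that binds vitronectin, had 4 measured probe sets. They read 1621, 1549, 1140.2 and 1127 in the mutant, against 1704, 1648, 1549.9 and 945 in the control. Of these, 3 were lower in the mutant, at -0.07, -0.09 and -0.44, and 1 was higher, at 0.25, a mean of -0.09 (SD 0.28). The brightest set, at -0.07, and the set at -0.44 are of the suffix class whose probes can also match other transcripts.

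Itgb3 was the subunit with the widest difference. It encodes the beta chain that pairs with alphav in activated endothelium and with alphaIIb (Itga2b, the antigen CD41) on platelets and megakaryocytes. The measured probe set, 1455257_at, read 99.6 in the mutant and 283 in the control, 2.85-fold lower in the mutant, a log2 ratio of -1.51. This lay at percentile 0.216 of all measured genes, 3.07 times the pooled SD of 0.49 of dim probe sets. The mutant reading was close to the floor of 82.4, and 4.52% of the 1349 measured genes with a mean signal under 200 were at least 2-fold lower. A second probe set, 1421511_at, read 47.8 in the mutant and 14.9 in the control, both under the floor, so it gives no ratio and the difference rests on 1 probe set. Among 6 megakaryocyte and platelet markers on the array, Itga2b was under the floor on both arrays, at 28.6 in the mutant and 41.1 in the control, as were Gp9, Ppbp and Gp6. The only one measured on both, the platelet chemokine gene Pf4, was higher, at 295 in the mutant and 214 in the control. The summed signal of the 6, 532 in the mutant and 342 in the control, takes in readings under the floor. Among these are Gp9, at 76.6 in the mutant and 6.6 in the control, and the control reading of Gp1bb. Gp1bb was at 99.6 in the mutant and 58.3 in the control. Erythroid markers were lower in the same array, with a summed signal of 7348 over 6 genes in the mutant and 11196 in the control, and their part in the Itgb3 result was not tested.

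**Figure D3:**
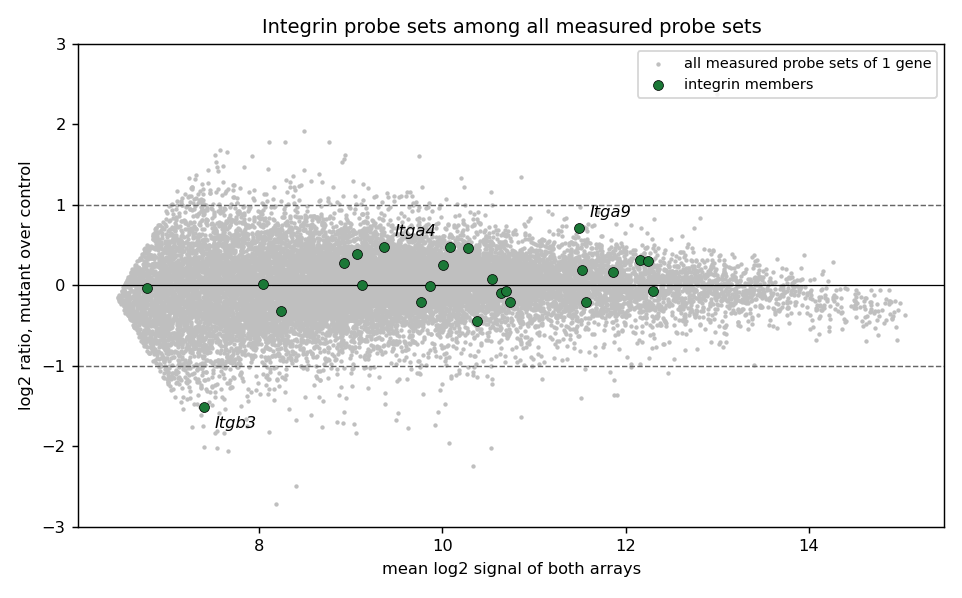
Log2 ratio of mutant over control against the mean log2 signal of both arrays, for all measured probe sets of 1 gene (grey) and the 25 of the integrin genes (green), with 2-fold as dashed lines. The integrin probe sets spread over the cloud of all genes, with Itgb3 at its lower edge at -1.51 among dim probe sets and the highest Itga9 set at 0.72 near its upper edge.

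Of 15 other integrin subunits on the array and Itgbl1, which encodes an integrin beta-like protein, 6 genes were measured. Their median log2 ratio was -0.23. In the mutant 5 were lower and 1 higher, where 51% of all measured genes were lower. After quantile normalization or loess, 4 were lower and 2 higher. At 2-fold there were 0, where 1.46% of all measured genes were at least 2-fold lower and 0.647% at least 2-fold higher. Itga8, whose product binds nephronectin and fibronectin and is known from mesenchymal cells, read 943 and 640.4 in the mutant, against 1216 and 1276 in the control. Both Itga8 probe sets were lower, at -0.37 and -0.99. Itgb4, the partner of alpha6 in hemidesmosomes, read 115 in the mutant and 186 in the control (-0.69). Itgb2, the beta chain of leukocyte integrins, read 183 in the mutant and 102 in the control (0.85), close to the floor in the control. Of 8 leukocyte markers 2 were measured on both arrays, Cd68 at 0.79 and Laptm5 at 0.22, with the other measured Laptm5 set at -0.48. Csf1r, the receptor of macrophage growth factor, read 80.6, under the floor, in the mutant and 144 in the control, and Ptprc, the gene of CD45, was under the floor on both. The summed signal of all 8 was 1569 in the mutant and 1383 in the control, and with the lower floor 2 were lower and 3 higher. Their part in the Itgb2 value was not tested. Itga3, with measured probe sets on either side of 0, was at -0.33, Itga2 at -0.14 and Itgb7 at -0.01. The other 10 were under the floor on both arrays: Itga2b, Itga7, Itga10, Itgae, Itgal, Itgam, Itgax, Itgb6, Itgb8 and Itgbl1.

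Genes of integrin ligands were mostly lower in the mutant. Of 25 measured, 21 were lower and 4 higher, where 51% of all measured genes were lower, with a median log2 ratio of -0.30. At least 2-fold lower was 1, where 1.46% of all measured genes were. That was Thbs1, thrombospondin 1, a ligand of alphav beta3, at 1457 in the mutant and 3252 in the control (-1.16). Its second probe set was at -1.12. Lama2, a laminin chain read by a single probe set, was next at -0.96, with 107 in the mutant, close to the floor, and 208 in the control. Postn, which encodes periostin, followed at -0.73, with 6431 in the mutant and 10686 in the control. The brightest ligands differed less: Fn1, fibronectin, read 16041 in the mutant and 18405 in the control (-0.20), Col4a1 was at -0.21 and Col3a1 at -0.07. Edil3, an RGD protein, was the highest at 0.62, while its other measured set was at -0.50. Of the ligands of alpha4 and alpha9 named here after their values were seen, Fn1, Vcam1, Tnc and Emilin1 were lower by the brightest probe set. Measured values above 0 came from the dimmest Vcam1 set and the other Emilin1 set. Vcam1 read 1245, 571 and 255 in the mutant, against 1524, 1058 and 179 in the control, at -0.29, -0.89 and 0.52. Tnc, tenascin-C, read 970 in the mutant and 1366 in the control (-0.49), and Emilin1 was at -0.41, with its other set at 0.35. Svep1 read 111 in the mutant and 52.1, under the floor, in the control. Postn and Col1a1 are also counted among the cushion mesenchyme markers, which were lower in the same array with a summed signal of 27769 in the mutant and 38716 in the control. Their part in the ligand values was not tested. Without both genes the ligand median was again -0.30. Postn lay below that median and Col1a1, at -0.11, above it, so leaving out both could not move it.

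**Figure D4:**
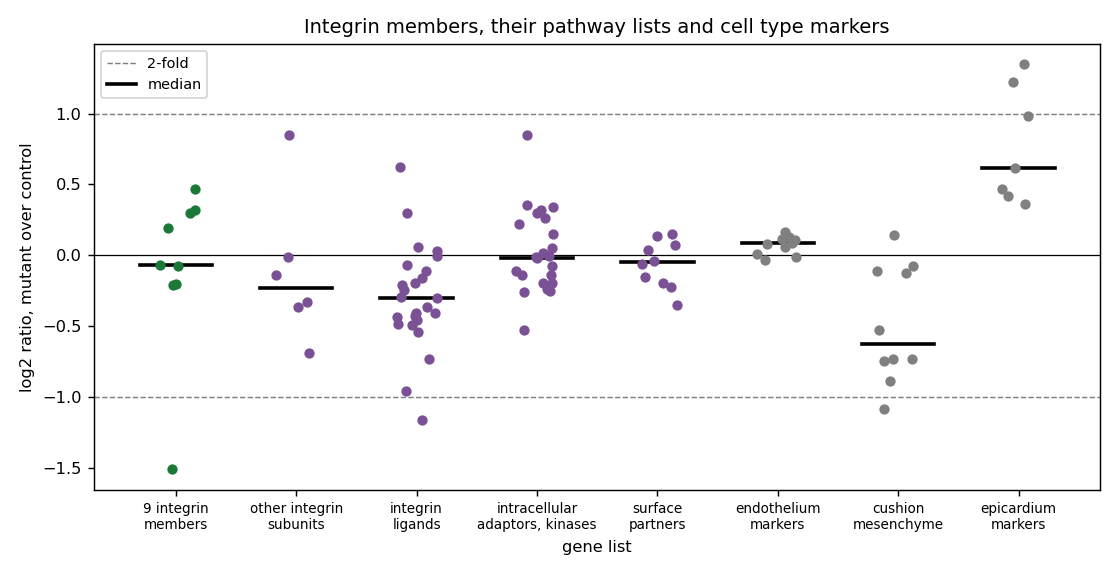
Log2 ratio of mutant over control for each measured gene (points, brightest probe set) of the 9 integrin members, 4 pathway lists and 3 cell type marker lists, with the median of each list as a black bar and 2-fold as dashed lines. The median of the integrin members is -0.07, that of their ligands -0.30, that of cushion mesenchyme markers -0.63 and that of epicardial markers 0.62.

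Inside the cell, genes of integrin adaptors and kinases had a median log2 ratio of -0.02. Of 24 measured, 14 were lower and 10 higher, where 51% of all measured genes were lower. With the median over probe sets, 11 were lower and 13 higher. At 2-fold there were 0, where 1.46% of all measured genes were at least 2-fold lower and 0.647% at least 2-fold higher. Fermt3, which encodes kindlin-3, the kindlin of blood cells, was the highest, at 489 in the mutant and 271 in the control (0.85), with its other measured set at 0.77. Bcar1, which encodes the docking protein p130Cas, was lowest at -0.52, with its other set at 0.07, and Rap1a, a small GTPase of integrin activation, was at 0.36 and 0.63. The brightest, Zyx, Rap1b and Ilk, the gene of integrin-linked kinase, were at 0.00, -0.11 and 0.05. Surface partners of integrins, such as tetraspanins, had a median of -0.05, with 6 of 10 lower, where 51% of all measured genes were. Lowest in this list, at -0.35, was Itgb3bp, whose product is named for binding the beta3 tail inside the cell and is not a surface protein. Slc3a2, whose product CD98 binds beta tails, was at -0.22. Cd47, a thrombospondin receptor that associates with beta3, was at -0.20 in the brightest of its 5 measured probe sets and from -0.96 to -0.03 in the others. How often genes with 5 measured sets had all of them lower was not computed. The bright partner genes Bsg, Cd81 and Cd151 were at -0.04, -0.15 and 0.15.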

How the data were processed

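Total RNA of 1 sorted preparation per genotype was hybridised to 1 array each. Per the submitters' processing notes the authors used MAS5, and the deposited numbers are linear intensities, 1 per probe set. Both arrays had a trimmed mean of 500 (2% cut at either end), as global scaling gives. No source used here gives the version, settings or genome build. Scaling by 1 factor leaves trends with brightness in place, and subtracting mismatch probes adds noise where signals are dim. The number of arrays limits the precision.

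Gene names came from the platform annotation, and all 9 symbols were found in the RefSeq gene table. The 64 array controls were left out. Signals were floored at each array's median, put on the log2 scale and subtracted, mutant minus control. A gene was read by its brightest probe set, by mean log2 signal. Signals do not rank transcript levels between genes, since probe sets differ in affinity. Alternatives were other scalings, a loess fit with a span of 0.3, other floors, a pseudocount and other choices of probe set. The steps were tested on simulated data. Motif letters were settled on after other short motifs had been looked at. Python 3.11.15, pandas 2.3.3 and statsmodels 0.14.6 were used.

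The members, lists and tests were chosen with earlier results of these data known. Named genes are all 9 members, Tbx20, measured other subunits, the 3 widest and 3 brightest genes of each pathway list and some cell type markers. With 2 arrays no likeness of patterns between genes was computed.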

Additional observations from a re-analysis of the deposited data

How the results depend on the processing

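Signs of the 9 gene ratios held in all alternatives that gave a value, except Itga5, which was at 0.0099 with the median over probe sets and 0.085 with unsuffixed probe sets. Other scalings, floors and the pseudocount reread the same brightest probe set, so an unchanged sign there says nothing about a gene's other sets. With the median over probe sets, Itgav was at -0.0098, Itga6 at 0.055 and Itgb1 at 0.066. Itga4 ranged from 0.37 to 0.47, Itga9 from 0.16 to 0.72 and Itgb3 from -1.53 to -1.04. With the floor at the 75th percentile Itgb3 was no longer measured, so 0 subunits were 2-fold lower, as with a 3-fold rule. The median over the subunits turned to 0.064 with that floor and, by an alternative chosen after seeing the data, without Itgb3, to 0.0099 with the median over probe sets and to 0.085 with unsuffixed probe sets. Genes with probe sets of both signs numbered 7 after quantile normalization or loess, 3 with the higher floor and 2 with unsuffixed probe sets, the last 2 settings leaving fewer probe sets. The median of adaptors turned to 0.027 with the median over probe sets, that of surface partners was -0.15 with unsuffixed probe sets (5 genes left), that of other subunits -0.37 with the higher floor (1 gene left) and that of endocardial markers 0.082 with the higher floor. Over all genes, 2-fold calls numbered 156 lower and 69 higher, 537 and 233 with the floor at the 25th percentile, 34 and 12 at the 75th, and 68 and 14 with a pseudocount. Lower genes were 69.3% of calls, 82.9% with a pseudocount, 62.4% after loess and 61.5% with quantile normalization. No paired analysis was possible because each genotype has 1 array. Signal near the floor limits Itgb3.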
